A study of Mus musculus with 6 samples.

Results

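The livers numbered 3 were compared with the livers numbered 1 and 2 of the same 2 genotypes. Total liver RNA of male C57BL/6 mice aged 8 weeks had been hybridised to Clariom S mouse arrays, a platform with 1 probe set for most genes. The 6 arrays comprised 3 wild-type livers (WT 1, WT 2 and WT 3) and 3 livers labelled HMGB2-KO (HMGB2-KO 1, 2 and 3), named for a knockout of Hmgb2, which encodes a DNA-bending chromatin protein. No treatment or surgery was named for any of them. WT 3 and HMGB2-KO 3 are 2 of the 6 arrays, and the other 4 served as their comparison. The sources used here give neither the way the knockout was made nor the hour of collection or the feeding state of the mice. The titles number the livers without stating that each came from a separate mouse, so the p-values below reflect only how these samples spread, and that spread may be technical.

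The division into number 3 against numbers 1 and 2 was chosen because circadian genes on these arrays, among them Nr1d1, Dbp, Arntl and Npas2, divided that way. Every value of that contrast is therefore given as a description with no test. The genotype change and the difference of the contrast between genotypes were tested. The latter is not independent of the choice in clock genes, which were picked for dividing alike in both genotypes, and is not read there. Nor is it independent in genes named for their number 3 differences. Values are log2 values relative to a gene's own zero, after each array was centred on its median. They give differences between arrays, not the brightness of a gene, so genes are not ranked by level and the liver markers could not be checked by level. A difference is number 3 minus numbers 1 and 2, averaged over both genotypes, with the standard error (SE) of a linear model with genotype as second term. A probe set is counted as higher or lower below where WT 3 differed at least 1.5-fold from the mean of WT 1 and 2, HMGB2-KO 3 differed at least 1.5-fold in the same direction from the mean of HMGB2-KO 1 and 2, and the 2 arrays did not overlap the other 4.

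The mammalian circadian clock is a loop of transcription factors. The heterodimer of BMAL1, the product of Arntl, with CLOCK or its paralogue NPAS2 binds E-boxes and drives the Per and Cry genes, whose products inhibit it, as well as Nr1d1, Nr1d2 and Dbp. The REV-ERB receptors encoded by Nr1d1 and Nr1d2 repress genes with ROR response elements (ROREs), which the ROR receptors activate and which include Arntl, Npas2, Cry1 and Nfil3. DBP, TEF and HLF activate D-box genes and NFIL3 represses them. In mouse liver Nr1d1 and Dbp peak at an opposite phase of the day to Arntl and Npas2, and the clock, together with feeding, sets daily rhythms in lipid, glucose and bile acid genes.

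The promoter stretches below are shown because they carry these elements in clock genes that stood apart on the livers numbered 3. They come from RefSeq on the GRCm38.p6 build, run 5′ to 3′ on the strand of the gene, and have the element in capitals. Positions count from the transcription start site, with negative values before it.

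Ciart: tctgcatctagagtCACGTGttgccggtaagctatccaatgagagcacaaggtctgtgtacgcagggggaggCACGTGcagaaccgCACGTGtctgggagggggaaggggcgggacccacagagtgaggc
Per1: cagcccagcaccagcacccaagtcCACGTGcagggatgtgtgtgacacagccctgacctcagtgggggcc
Cry1: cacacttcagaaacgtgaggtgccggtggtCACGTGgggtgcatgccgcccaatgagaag
Per3: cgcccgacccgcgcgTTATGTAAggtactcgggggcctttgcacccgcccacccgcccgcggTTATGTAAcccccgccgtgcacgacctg
Nfil3: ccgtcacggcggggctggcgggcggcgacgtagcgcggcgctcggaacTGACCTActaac
Arntl: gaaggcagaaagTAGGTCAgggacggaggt

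The Ciart stretch (chr3:95882229-95882358, minus strand) holds 3 E-boxes, which begin at -116, -58 and -44. The Per1 stretch (chr11:69098759-69098828, plus strand) holds 1 E-box at -166, and the Cry1 stretch (chr10:85185085-85185144, minus strand) holds 1 at -60. The Per3 stretch (chr4:151044796-151044885, minus strand) has D-boxes at -205 and -158. The RORE of Nfil3 (chr13:52981040-52981099, minus strand) lies on the opposite strand at -12, and that of Arntl (chr7:113207529-113207558, plus strand) begins 31 bases after the start site. The motifs searched on both strands were CACGTG for the E-box, which reads the same on either strand, TTATGTAA or TTACGTAA for the D-box, and TAGGTCA for the RORE. None of the motifs contains another. In windows from 250 bases before to 50 bases after the start site, 5 of the 17 clock genes with a promoter held an E-box (Bhlhe41, Ciart, Cry1, Per1 and Tef), 1 a D-box (Per3) and 2 a RORE (Arntl and Nfil3). Over all 27025 genes with a promoter the shares were 8.09%, 1.23% and 2.97%. Of the 9 genes with a promoter among the 12 lowest described below, Fkbp5 and Lpin2 held an E-box, and of the 10 among the 12 highest, Tsc22d1 did. A motif is a match of letters in these windows and does not show binding.

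In the positive arm of the clock, Arntl and Npas2 were higher on the livers numbered 3 in both genotypes. Arntl stood at -0.99, -1.71 and 0.62 in WT 1, 2 and 3 and at -1.03, -1.98 and 0.72 in HMGB2-KO 1, 2 and 3. Both number 3 arrays lay above the other 4, by 2.10 ± 0.43 (SE), or 4.28-fold. Npas2 stood at -1.33, -1.14 and 0.54 in WT 1, 2 and 3 and at -1.40, -1.37 and 0.49 in HMGB2-KO 1, 2 and 3. The 4 comparison arrays of Npas2 lay close together, and its difference was 1.82 ± 0.07, or 3.54-fold. Clock also did not overlap, at -0.20, -0.96 and -0.05 in WT 1, 2 and 3 and -0.42, -0.64 and 0.14 in HMGB2-KO 1, 2 and 3, but its 0.60 ± 0.28 fell short of 1.5-fold in WT. The 3 probe sets of Rora differed by -0.13 to 0.08 and both of Rorb by 0.08. Arntl and Npas2 were thus counted as higher, and 0 of the 9 activator probe sets as lower, against 0.676% of all 22203 probe sets higher and 0.914% lower. These shares stand for comparison only, since the contrast was chosen on such genes. The activators' median difference was 0.08 (0.06 to 0.32 with 1 array left out), and that of all probe sets was -0.0034. The repeated probe sets of Rora and Rorb weigh in the activators' median, which was 1.21 after averaging over symbols and -0.01 on the values as deposited.

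The repressors went mainly the other way, with Nr1d1 furthest apart. Nr1d1 stood at 3.27, 3.03 and -1.57 in WT 1, 2 and 3 and at 2.88, 2.91 and -1.52 in HMGB2-KO 1, 2 and 3. The other 4 arrays lay between 2.88 and 3.27, and the number 3 arrays were 23.6-fold lower, a difference of -4.56 ± 0.12. Nr1d2, its paralogue, stood at 1.43, 1.85 and -0.39 in WT 1, 2 and 3 and at 1.84, 2.10 and -0.81 in HMGB2-KO 1, 2 and 3, a difference of -2.41 ± 0.28. Per1 stood at 0.12, 0.70 and -1.55 in WT 1, 2 and 3 and at 0.49, 0.72 and -0.44 in HMGB2-KO 1, 2 and 3, a difference of -1.5 ± 0.34. WT 3 was the lowest of the 6 Per1 values by a wide step. Per3 stood at 0.21, 1.26 and -0.45 in WT 1, 2 and 3 and at 0.59, 1.31 and -0.10 in HMGB2-KO 1, 2 and 3, a difference of -1.12 ± 0.45.

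Ciart, whose product CHRONO represses BMAL1-driven transcription and whose promoter carries the 3 E-boxes shown above, was lower by a margin that depended on the comparison liver. It stood at 0.42, 2.75 and 0.06 in WT 1, 2 and 3 and at 0.55, 2.80 and 0.16 in HMGB2-KO 1, 2 and 3. The livers numbered 2 lay far above the other 4, and the difference of -1.52 ± 1.15 has a correspondingly large error. Cry1 was the one repressor counted as higher. It stood at -0.51, -0.70 and 0.30 in WT 1, 2 and 3 and at -0.50, -0.47 and 0.69 in HMGB2-KO 1, 2 and 3, a difference of 1.04 ± 0.10. Cry2 was lower without reaching 1.5-fold, at -0.34 ± 0.19. The Per2 groups overlapped, with 0.27 in WT 2 and 0.50 in HMGB2-KO 2 beside 0.30 in WT 3 and 0.78 in HMGB2-KO 3. Of the 8 repressors, 5 were lower and 1 higher, against 0.914% and 0.676% of all probe sets. Those shares again stand for comparison only. The repressors' median difference was -1.31.

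Among the 6 transcription factors listed as clock outputs, through which the clock acts on its targets, Dbp, Bhlhe41 and Nfil3 divided in the same fashion. Dbp stood at 3.64, 4.99 and 0.09 in WT 1, 2 and 3 and at 4.42, 5.55 and 0.11 in HMGB2-KO 1, 2 and 3. The number 3 arrays were 23.4-fold lower, a difference of -4.55 ± 0.65. Bhlhe41, which encodes the E-box repressor DEC2, stood at 0.63, 1.12 and -0.23 in WT 1, 2 and 3 and at 0.29, 0.86 and -0.60 in HMGB2-KO 1, 2 and 3, a difference of -1.14 ± 0.27. Nfil3, the repressor of D-box genes whose promoter carries a RORE, was higher. Its values were -0.34, -1.18 and -0.03 in WT 1, 2 and 3 and -0.70, -0.62 and 0.32 in HMGB2-KO 1, 2 and 3, a difference of 0.86 ± 0.31. Tef (-0.34 ± 0.11), Hlf (-0.29 ± 0.22) and Bhlhe40 (-0.58 ± 0.43) were not counted. Bhlhe40 rested on 1 liver, with -0.19 without WT 3 and -0.96 without HMGB2-KO 3. Over the 3 clock lists, 5 of 23 probe sets were higher and 7 lower, beside 0.676% and 0.914% of all probe sets, for comparison only.

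**Figure D1:**
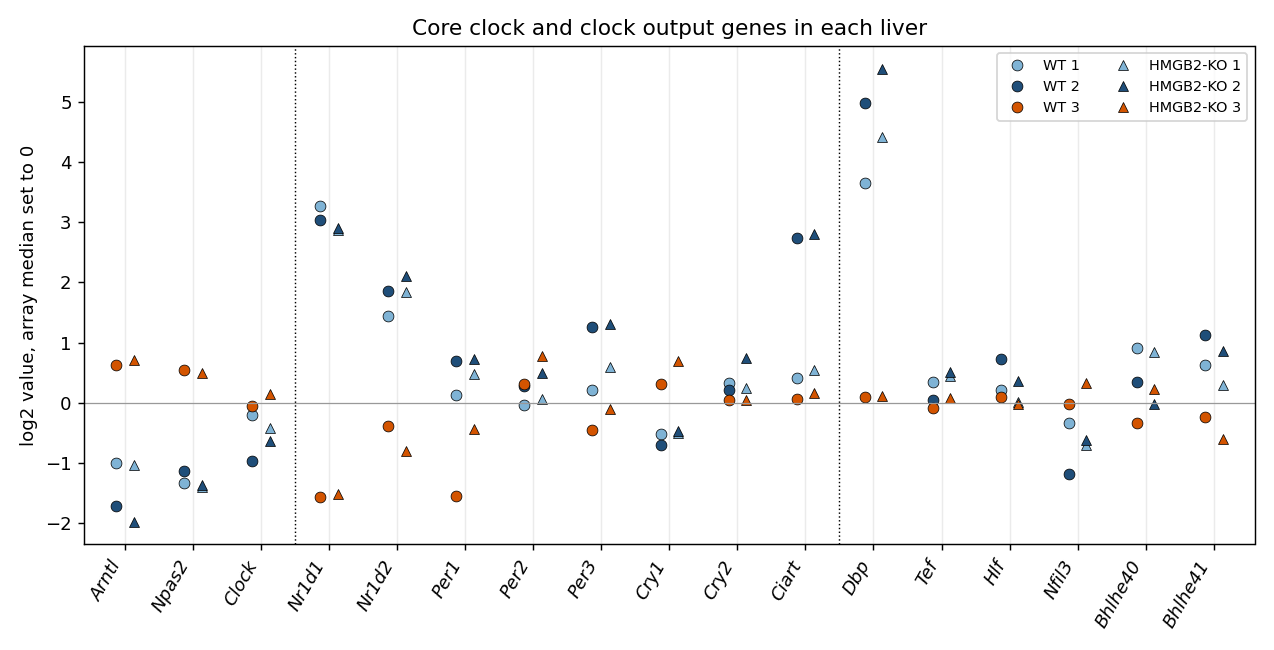
Centred log2 values (vertical) of 17 of the clock genes (horizontal, with dotted lines between activators, repressors and outputs), with circles for WT, triangles for HMGB2-KO and orange for the livers numbered 3. The number 3 arrays of Nr1d1 lie at -1.57 and -1.52 under 4 values between 2.88 and 3.27, while those of Npas2 lie at 0.54 and 0.49 over 4 values between -1.40 and -1.14.

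The number 3 contrast was not limited to the clock lists. Across all genes, 150 probe sets were higher and 203 lower by the rule above, 353 in all. At the 1.5-fold size alone, 159 were higher and 225 lower in both genotypes, while 87 went in opposite directions. At 2-fold, 105 went the same way and 15 opposite ways. With the overlap condition, 34 were higher and 70 lower at 2-fold. Without any size condition, the 2 arrays did not overlap the other 4 in 2224 probe sets that were higher (10.0%) and 2062 that were lower (9.29%). The differences in WT and in HMGB2-KO had a Pearson correlation of 0.27 across genes and 0.26 over the 22180 probe sets outside the clock lists. It was 0.22 over the 21759 probe sets outside all gene lists. Across genes it ran from 0.18 without WT 2 to 0.26 without WT 1 when 1 comparison array was left out. Genes are not independent replicates, and these values are a description. The contrast had an SD of 0.41 across probe sets in WT and 0.35 in HMGB2-KO.

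The arrays also differed in quality. WT 2 stood apart in the table as deposited, with a column median of 0.26 and an SD of 0.53 where the other medians lay between -0.05 and 0.01 and the other SDs between 0.32 and 0.36. It held 79 values more than 3 log2 units under all other arrays of their gene, WT 1 held 17 and the other 4 held 0. Both arrays are in the comparison group of WT.

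**Figure D2:**
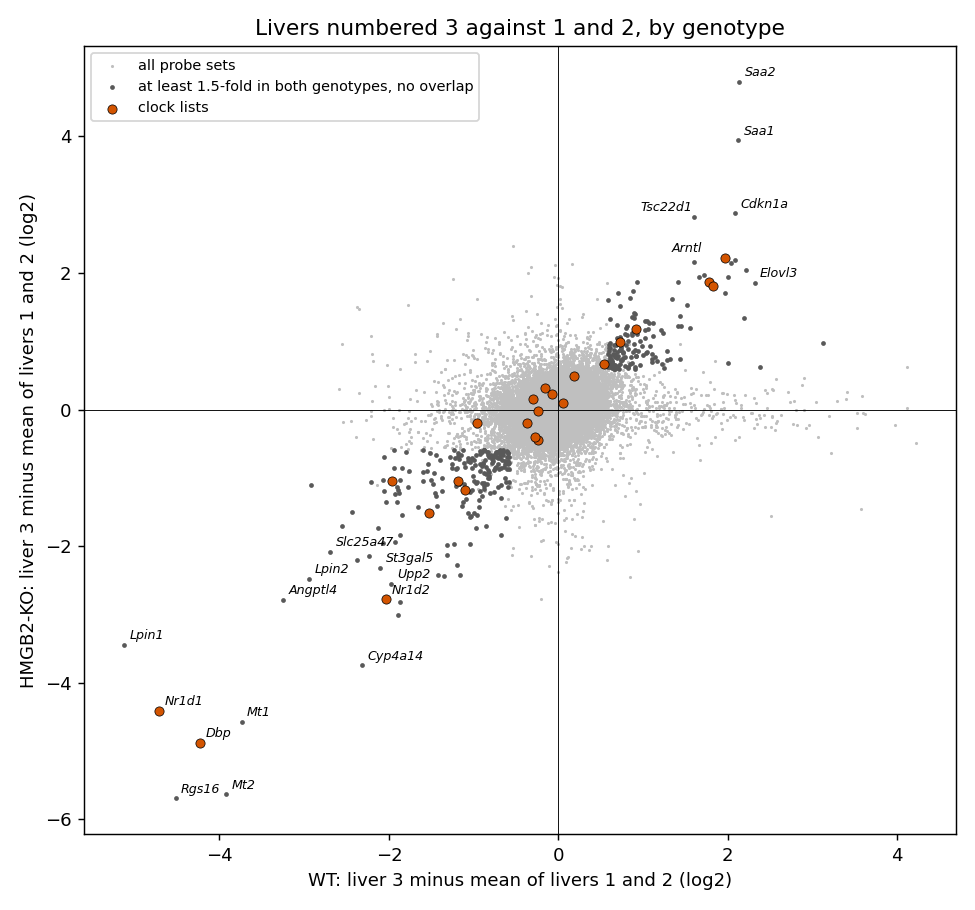
Number 3 difference in WT (horizontal) against HMGB2-KO (vertical) for every probe set, in log2 units, with clock genes in orange, counted probe sets in dark grey and several of the outermost genes named. Nr1d1, Dbp and Rgs16 lie far into the lower left and Arntl, Saa1 and Saa2 into the upper right, while most of the 22203 probe sets lie near 0 in both genotypes.

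The lowest 12 genes outside the clock lists were ranked by the smaller of the 2 within-genotype differences, after the exclusions of the naming rule. Their average differences ranged from -5.10 for Rgs16 to -1.93 for Fkbp5. Genes not among the 12, such as Gpcpd1 and Txnip, can have a lower average than Fkbp5. Rgs16, a regulator of G-protein signalling, stood at 3.19, 5.75 and -0.05 in WT 1, 2 and 3 and at 6.97, 4.69 and 0.14 in HMGB2-KO 1, 2 and 3. Its 4 comparison values spread widely, but both number 3 arrays lay beneath them all, 34.4-fold lower, at -5.10 ± 1.26. Mt2 encodes a metal-binding protein induced by zinc and glucocorticoids. It stood at -4.48, -0.42 and -6.37 in WT 1, 2 and 3 and at -0.28, -1.69 and -6.61 in HMGB2-KO 1, 2 and 3, a difference of -4.77 ± 1.60. WT 1 was closer to the number 3 arrays than the other comparison livers were. Mt1, its neighbour and paralogue, followed the same order, with a difference of -4.15 ± 0.95. The Mt1 values were -2.49, -0.17 and -5.07 in WT 1, 2 and 3 and -0.05, -1.21 and -5.20 in HMGB2-KO 1, 2 and 3.

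Lpin1 encodes lipin 1, a phosphatidate phosphatase and coactivator of fatty acid oxidation genes. It stood at 3.74, 5.16 and -0.68 in WT 1, 2 and 3 and at 4.16, 5.39 and 1.33 in HMGB2-KO 1, 2 and 3, a difference of -4.29 ± 0.82. Lpin2, a second lipin, stood at 1.55, 2.51 and -0.92 in WT 1, 2 and 3 and at 2.22, 2.80 and 0.03 in HMGB2-KO 1, 2 and 3, a difference of -2.71 ± 0.42. In both lipins WT 3 was the lowest array and HMGB2-KO 3 the next. Angptl4, an inhibitor of lipoprotein lipase, stood at 1.42, 1.56 and -1.76 in WT 1, 2 and 3 and at 1.78, 2.29 and -0.75 in HMGB2-KO 1, 2 and 3, 8.11-fold lower at -3.02 ± 0.23. Cyp4a14, a fatty acid omega-hydroxylase and PPARα target, stood at 0.04, -0.44 and -2.52 in WT 1, 2 and 3 and at -1.0, -0.01 and -4.25 in HMGB2-KO 1, 2 and 3, a difference of -3.03 ± 0.57.

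Slc25a47, a mitochondrial carrier of hepatocytes, had 4 comparison values between 2.51 and 2.68, with -0.11 in WT 3 and 0.54 in HMGB2-KO 3, a difference of -2.39 ± 0.19. Upp2, a uridine phosphorylase, differed by -2.26 ± 0.57, and St3gal5, the GM3 ganglioside synthase, by -2.21 ± 0.55. Zbtb16 and Fkbp5 are known targets of the glucocorticoid receptor. Zbtb16 stood at 2.15, 2.31 and -0.01 in WT 1, 2 and 3 and at 1.35, 2.32 and -0.31 in HMGB2-KO 1, 2 and 3, a difference of -2.19 ± 0.35. Fkbp5, a chaperone of that receptor, stood at 0.47, 1.65 and -0.87 in WT 1, 2 and 3 and at 0.07, 1.81 and -0.99 in HMGB2-KO 1, 2 and 3, a difference of -1.93 ± 0.74.

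The highest 12 genes outside the clock lists, by the same rank, had average differences from 1.80 for Chka to 3.47 for Saa2. Genes not among the 12, such as Lcn2, can have a higher average than Chka. Saa2, which encodes an acute phase apolipoprotein, stood at -5.74, -5.88 and -3.67 in WT 1, 2 and 3 and at -6.09, -5.28 and -0.89 in HMGB2-KO 1, 2 and 3. Both number 3 arrays were above the other 4, at 3.47 ± 0.82, and HMGB2-KO 3 was the highest by a wide step. The difference was 2.13 without HMGB2-KO 3 and 2.27 after quantile normalization. Saa1 stood at -4.95, -4.27 and -2.48 in WT 1, 2 and 3 and at -4.70, -4.04 and -0.43 in HMGB2-KO 1, 2 and 3, 8.18-fold higher at 3.03 ± 0.62. Its difference was 2.13 without HMGB2-KO 3, 3.94 without WT 3 and 2.06 after quantile normalization. Hamp, which encodes the iron hormone hepcidin, stood at -0.66, -0.92 and 1.30 in WT 1, 2 and 3 and at -1.31, -0.81 and 1.13 in HMGB2-KO 1, 2 and 3, a difference of 2.14 ± 0.20. Its near-identical neighbour Hamp2 differed by 1.97 ± 0.05. Whether probes can tell that pair apart was not tested.

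Cdkn1a, the cell-cycle inhibitor p21, stood at -2.47, -2.75 and -0.52 in WT 1, 2 and 3 and at -2.11, -3.15 and 0.24 in HMGB2-KO 1, 2 and 3, a difference of 2.48 ± 0.44. Tsc22d1, a leucine zipper protein of TGF-β signalling, stood at 0.23, 0.12 and 1.78 in WT 1, 2 and 3 and at 0.55, 0.15 and 3.18 in HMGB2-KO 1, 2 and 3, a difference of 2.21 ± 0.38. That difference was 1.60 without HMGB2-KO 3, 2.82 without WT 3 and 3.21 after quantile normalization. Tubb2a, a β-tubulin, stood at -1.70, -3.43 and -0.35 in WT 1, 2 and 3 and at -1.74, -2.96 and -0.31 in HMGB2-KO 1, 2 and 3, a difference of 2.13 ± 0.75. In both genotypes the liver numbered 2 had the lowest Tubb2a value. Elovl3, an elongase of very long chain fatty acids with a strong daily rhythm in male mouse liver, stood at 0.11, -0.93 and 1.91 in WT 1, 2 and 3 and at 0.36, 0.00 and 2.03 in HMGB2-KO 1, 2 and 3, a difference of 2.09 ± 0.41. Grk5, a G-protein-coupled receptor kinase, differed by 2.09 ± 0.27. Chka, a choline kinase, differed by 1.80 ± 0.42, Lgalsl, a galectin-like gene, by 1.84 ± 0.28 and Cml5 by 1.83 ± 0.23.

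**Figure D3:**
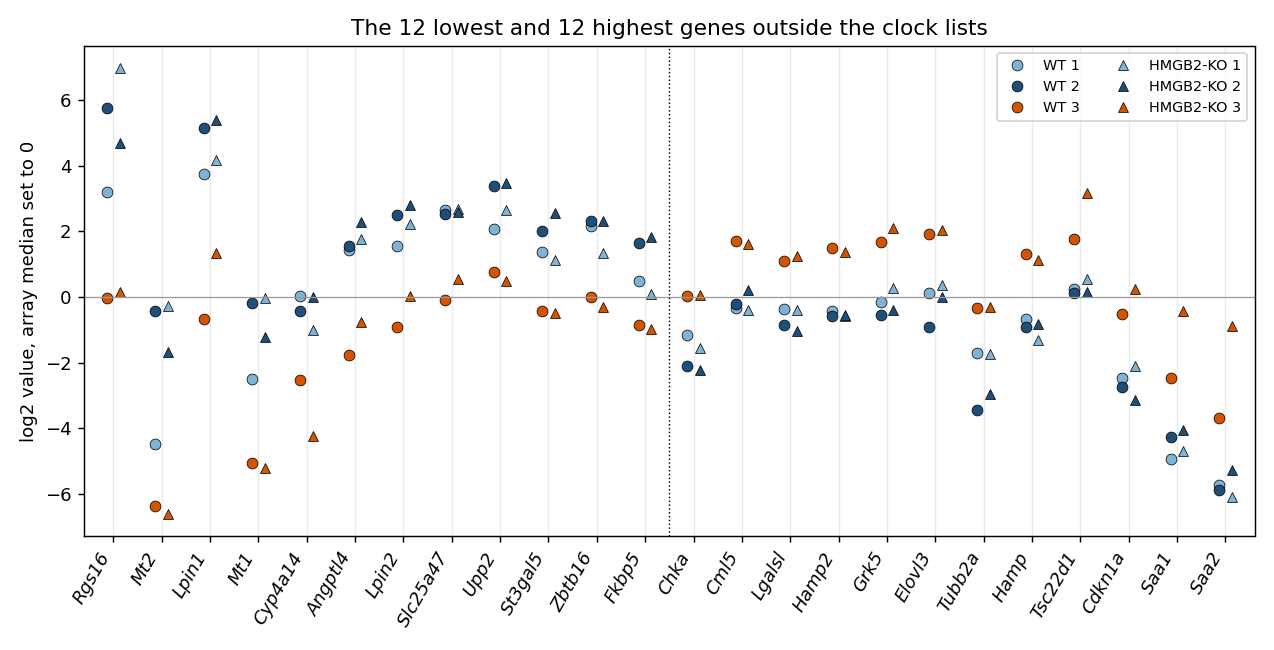
Centred log2 values (vertical) of the 12 lowest and 12 highest genes outside the clock lists, by the rank used in the text. The lowest are left of the dotted line and the highest right of it. Circles are WT, triangles HMGB2-KO and orange the livers numbered 3. The 2 number 3 arrays lie outside the range of the other 4 in every gene shown, which the choice of the genes required, and the spread of the 4 ranges from narrow in Slc25a47 to wide in Rgs16 and Mt2.

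Further genes known to follow the clock in liver were lower more often than higher. Of 20, 7 were counted as lower and 3 as higher, against 0.914% and 0.676% of all probe sets. The median difference of the 20 was -0.14 (-0.25 without HMGB2-KO 2 and -0.22 without HMGB2-KO 3). Rgs16 and Upp2 are among the 7. Klf10, a zinc finger factor of glucose metabolism, stood at 2.10, 1.49 and 0.13 in WT 1, 2 and 3 and at 1.65, 1.84 and 0.32 in HMGB2-KO 1, 2 and 3, a difference of -1.54 ± 0.24. Klf9 differed by -1.13 ± 0.05, with number 3 values of -0.04 and 0.33 under 4 values between 1.11 and 1.48. Ppara, the fatty acid receptor that drives oxidation genes, differed by -1.13 ± 0.14, Gys2, the liver glycogen synthase, by -0.98 ± 0.31 and Coq10b by -0.97 ± 0.44. On the higher side stood Avpr1a, a vasopressin receptor, at 1.19 ± 0.52, Tfrc, the transferrin receptor, at 0.97 ± 0.29 and Lonrf3 at 0.94 ± 0.30.

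Genes described as REV-ERB repressed, other than clock factors, numbered 9. Cdkn1a, Elovl3 and Insig2 were higher and Pck1 lower. For this list and the others of this paragraph, the shares of all probe sets were 0.676% higher and 0.914% lower. Insig2, which retains the sterol sensor SCAP in the endoplasmic reticulum, differed by 0.73 ± 0.14. The list's median was 0.65 in WT and -0.01 in HMGB2-KO. Of 10 genes reported as targets of DBP, TEF and HLF, 2 were lower and 0 higher, with a median of -0.29 (-0.17 without HMGB2-KO 2). Por, the electron donor of microsomal cytochrome P450s, stood at -0.14, 0.53 and -1.12 in WT 1, 2 and 3 and at -0.92, 0.43 and -2.38 in HMGB2-KO 1, 2 and 3, a difference of -1.73 ± 0.58. Cyp2b10, a xenobiotic-induced P450, differed by -1.13 ± 0.65. Por, Cyp2b10 and Cyp3a25, at -0.91 ± 0.32, were the 3 of 22 xenobiotic genes counted as lower.

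Of 21 genes of fasting and PPARα, 7 were counted as lower and 0 as higher on the livers numbered 3, against 0.914% and 0.676% of all probe sets. The other 14 were not counted. Of the 21 differences, 5 were above 0, beside 10940 of all 22203 probe sets, and the median was -0.36. That median was -0.62 without WT 3 and -0.23 without HMGB2-KO 2. Beside Lpin1, Angptl4 and Cyp4a14, the 7 comprised Igfbp1, Pck1, Cpt1a and Vnn1. Cpt1a, the carnitine palmitoyltransferase that admits fatty acids to mitochondria, stood at 0.51, 0.59 and -0.50 in WT 1, 2 and 3 and at 0.60, 0.91 and -0.82 in HMGB2-KO 1, 2 and 3, a difference of -1.31 ± 0.19. Igfbp1, an insulin-repressed binding protein, stood at -0.09, 0.75 and -2.11 in WT 1, 2 and 3 and at 1.5, -0.14 and -0.82 in HMGB2-KO 1, 2 and 3, a difference of -1.97 ± 0.71. Pck1, the gluconeogenic enzyme PEPCK, differed by -1.40 ± 0.32, and by -0.86 without WT 3. Vnn1, a pantetheinase, differed by -0.84 ± 0.39.

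Insulin-responsive and lipogenic genes did not show the opposite picture as a list. Of 15, 2 were higher and 1 lower, against 0.676% and 0.914% of all probe sets. The list's median was 0.06 (-0.01 to 0.17 with 1 array left out). Fasn, the fatty acid synthase, stood at -0.43, -0.93 and 0.02 in WT 1, 2 and 3 and at -0.01, -1.46 and 0.97 in HMGB2-KO 1, 2 and 3, a difference of 1.21 ± 0.62 that was 0.70 without HMGB2-KO 3. Elovl6, a further elongase, was lower at -0.99 ± 0.22. Srebf1, which encodes the lipogenic factor SREBP-1, shares a probe set with a microRNA gene and is described after its values were seen. That probe set stood at -1.22, -1.43 and 0.08 in WT 1, 2 and 3 and at -1.59, -1.78 and 0.18 in HMGB2-KO 1, 2 and 3, a difference of 1.64 ± 0.17.

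Of 13 glucocorticoid receptor targets, 6 were lower and 1 was higher, against 0.914% and 0.676% of all probe sets. The 6 were Mt1, Mt2, Zbtb16, Fkbp5, Klf9 and Per1, of which Per1 is also a clock repressor and Klf9 one of the clock-controlled liver genes. The higher one, Lcn2, encodes lipocalin 2, an iron-sequestering acute phase protein. It stood at -5.33, -4.43 and -3.28 in WT 1, 2 and 3 and at -5.10, -4.93 and -2.85 in HMGB2-KO 1, 2 and 3, a difference of 1.88 ± 0.36 that was only 0.06 after quantile normalization. The list's median was -0.26, with -1.12 in WT and -0.23 in HMGB2-KO, and was -0.40 without HMGB2-KO 1 and -0.58 without HMGB2-KO 2.

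Of 23 acute phase genes, 6 were counted as higher and 0 as lower, against 0.676% and 0.914% of all probe sets. In 13 of them the number 3 arrays lay above the other 4, against 10.0% of all probe sets. The median was 0.28, with 0.18 in WT and 0.43 in HMGB2-KO. Saa1, Saa2, Hamp and Lcn2 are described above. Saa3, the serum amyloid of macrophages and inflamed tissue, differed by 1.52 ± 0.65, and Orm2, an orosomucoid, by 1.15 ± 0.32. Of 12 Kupffer cell and macrophage markers, 0 were counted. All 12 differences were above 0, beside 10940 of all 22203 probe sets (9 of the 12 on the values as deposited). The median of these markers was 0.14, with array medians of 0.34, 0.21 and 0.43 in WT 1, 2 and 3 and 0.52, 0.41 and 0.67 in HMGB2-KO 1, 2 and 3. Their part in the acute phase values was not tested. In these bulk samples more cells of a type and more RNA per cell cannot be told apart. Of 8 neutrophil markers and of 26 interferon-induced genes, 0 were counted, with medians of 0.01 and 0.12. Without 1 array these ran from -0.08 to 0.04 and from 0.07 to 0.24.

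The number 3 difference of cholesterol synthesis genes lay near 0 in WT and above it in HMGB2-KO. Of 24, 23 had a difference above 0, beside 10940 of all 22203 probe sets (21 of the 24 on the values as deposited). By the rule, 3 were counted as higher and 0 as lower, against 0.676% and 0.914% of all probe sets. The list's median was 0.01 in WT and 1.10 in HMGB2-KO. The overall median of 0.53 was 0.01 without HMGB2-KO 3, 0.30 without HMGB2-KO 2 and 1.10 without WT 3. Sqle, the squalene epoxidase, stood at 0.68, 0.40 and 0.18 in WT 1, 2 and 3 and at -0.10, -1.49 and 1.20 in HMGB2-KO 1, 2 and 3. HMGB2-KO 2 was thus the lowest and HMGB2-KO 3 the highest of its 6 values. The counted genes included Pmvk, phosphomevalonate kinase, at 1.12 ± 0.30 and Dhcr7, the last enzyme of the pathway, at 0.96 ± 0.48.

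Of 17 bile acid and sterol transport genes, 2 were lower and 0 higher, against 0.914% and 0.676% of all probe sets. Their median of -0.16 rested on HMGB2-KO 3, being 0.04 in WT and -0.20 in HMGB2-KO, and 0.04 without that array. Their products pair as the canalicular sterol exporter. Abcg5 stood at 0.39, 0.27 and -0.64 in WT 1, 2 and 3 and at 0.54, 0.19 and -1.37 in HMGB2-KO 1, 2 and 3, a difference of -1.35 ± 0.26. Abcg8 stood at 0.70, 0.60 and -0.67 in WT 1, 2 and 3 and at 0.79, 0.35 and -1.42 in HMGB2-KO 1, 2 and 3, a difference of -1.65 ± 0.25. Cyp7a1, the rate-limiting enzyme of bile acid synthesis, was not counted, at 1.28 ± 0.85, and was at 0.71 without WT 3.

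Stress and growth lists had few members counted, beside 0.676% of all probe sets counted as higher and 0.914% as lower. Heat shock genes were above 0 in 15 of 15, beside 10940 of all 22203 probe sets. On the values as deposited, which lower every difference by the same amount, 14 were above 0. In both genotypes 12 were higher, beside 28.9% of all probe sets. At 1.5-fold 0 were counted, and the median of the list was 0.34. That median was 0.21 without HMGB2-KO 1 and 0.19 without HMGB2-KO 3. Dnajb1, a cochaperone of HSP70, had the largest of these at 0.61, and Hsp90aa1 was at 0.43. The cold-inducible RNA-binding genes Cirbp and Rbm3 were at -0.10 and -0.36. Of 15 endoplasmic reticulum stress genes, Atf4 was higher at 0.76 ± 0.32. Of 18 immediate early genes, Egr1 and Zfp36 were lower. Egr1, a zinc finger factor of the first response to growth signals, stood at 0.13, -0.40 and -3.06 in WT 1, 2 and 3 and at -1.24, -2.13 and -2.78 in HMGB2-KO 1, 2 and 3, a difference of -2.01 ± 0.64. It was at -1.10 without WT 3 and at -3.04 after quantile normalization. Of 27 cell-cycle genes, Bub1 and Mcm4 were higher, at 0.75 ± 0.18 and 0.76 ± 0.27.

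Sex-biased genes were looked at because both growth hormone and the clock act on them. Of 18 male-biased genes, Elovl3, Cyp2u1 at 0.96 ± 0.15 and C6, a complement component, at 0.63 ± 0.24 were higher. Of 22 female-biased genes, 0 were counted. The shares of all probe sets were 0.676% higher and 0.914% lower. Without the size and overlap conditions, 15 of the 22 were lower in both genotypes (68.2%) and 4 higher (18.2%), against 28.7% and 28.9% of all probe sets. The median of the 22 was -0.27, with -0.28 in WT and -0.13 in HMGB2-KO. Of the 12 periportal genes, Pck1 and Sds, a serine dehydratase, were lower, and 0 of 10 pericentral genes were counted. The marker lists for hepatocytes, sinusoidal endothelium, stellate cells, cholangiocytes, lymphocytes, erythroid cells, adipose tissue, skeletal muscle and exocrine pancreas had 0 members counted. Their medians lay between -0.14 for lymphocytes and 0.15 for erythroid cells, the latter 0.07 without HMGB2-KO 3.

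**Figure D4:**
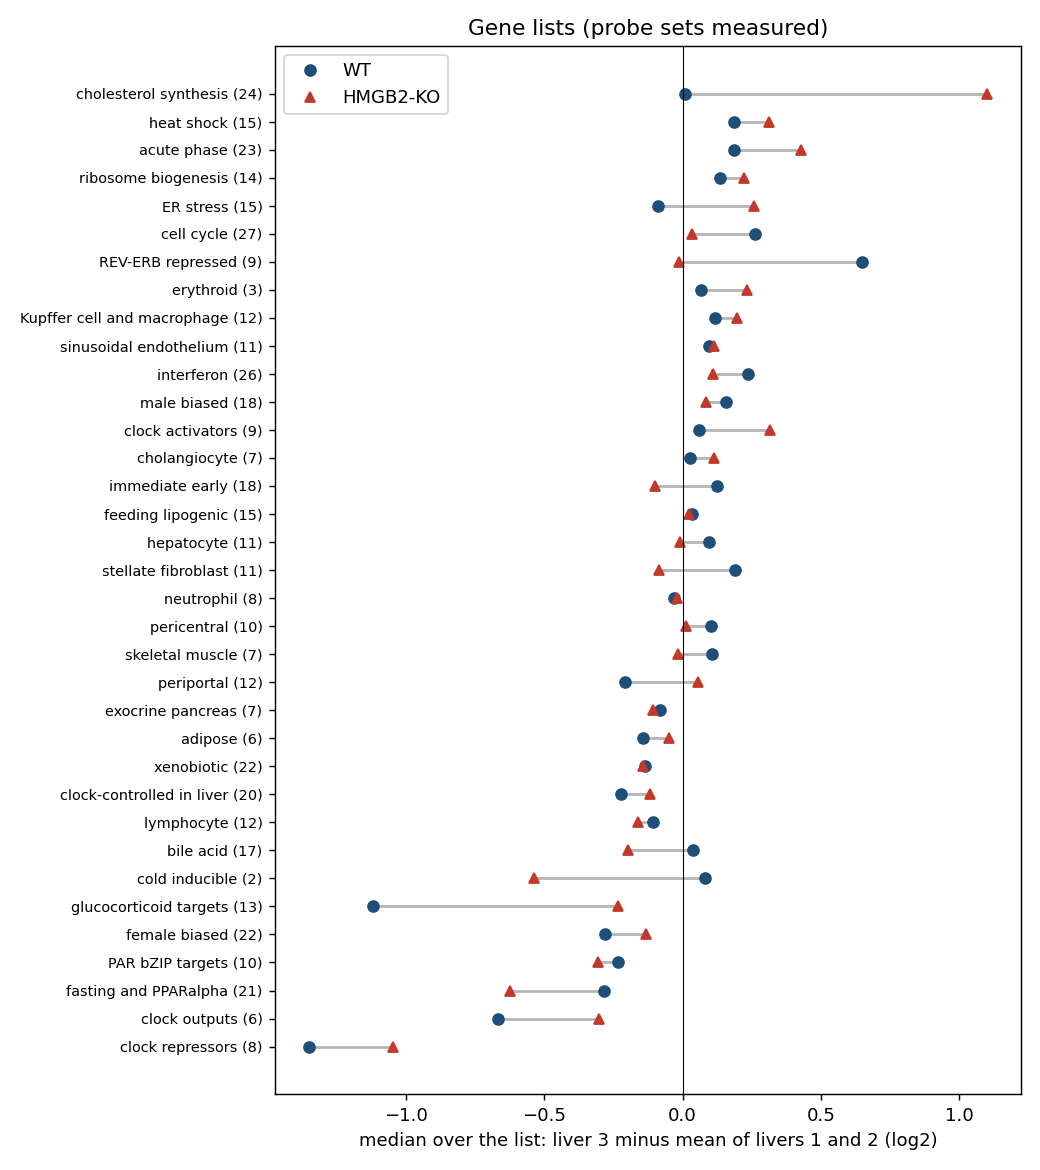
Median number 3 difference of each gene list in log2 units, with a circle for WT and a triangle for HMGB2-KO joined by a line, and the number of probe sets in brackets. The clock repressors lie low in both genotypes, at -1.35 and -1.05, and the WT and HMGB2-KO marks of cholesterol synthesis lie far apart, at 0.01 and 1.10.

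The livers numbered 2 also differed from those numbered 1 in some of the same genes. At 1.5-fold in both genotypes, 154 probe sets were higher in number 2 than in number 1 (0.694% of all) and 44 lower (0.198%), while 143 went in opposite directions. WT 2, the array that stood apart, enters this contrast. Of the 23 clock probe sets, Ciart, Dbp and Per3 were higher in number 2 and Arntl was lower. Arntl was at -1.71 in WT 2 against -0.99 in WT 1 and at -1.98 in HMGB2-KO 2 against -1.03 in HMGB2-KO 1. Usp2, a deubiquitinase with a daily rhythm, had its main step there, at -0.88, 1.10 and -0.07 in WT 1, 2 and 3 and -0.43, 1.88 and -0.68 in HMGB2-KO 1, 2 and 3. Number 2 minus number 1 was -0.23 in WT and 0.03 in HMGB2-KO for Nr1d1, and 0.19 and 0.02 for Npas2. In Dbp and Arntl, the livers numbered 1 lay between those numbered 3 and those numbered 2 in both genotypes.

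**Figure D5:**
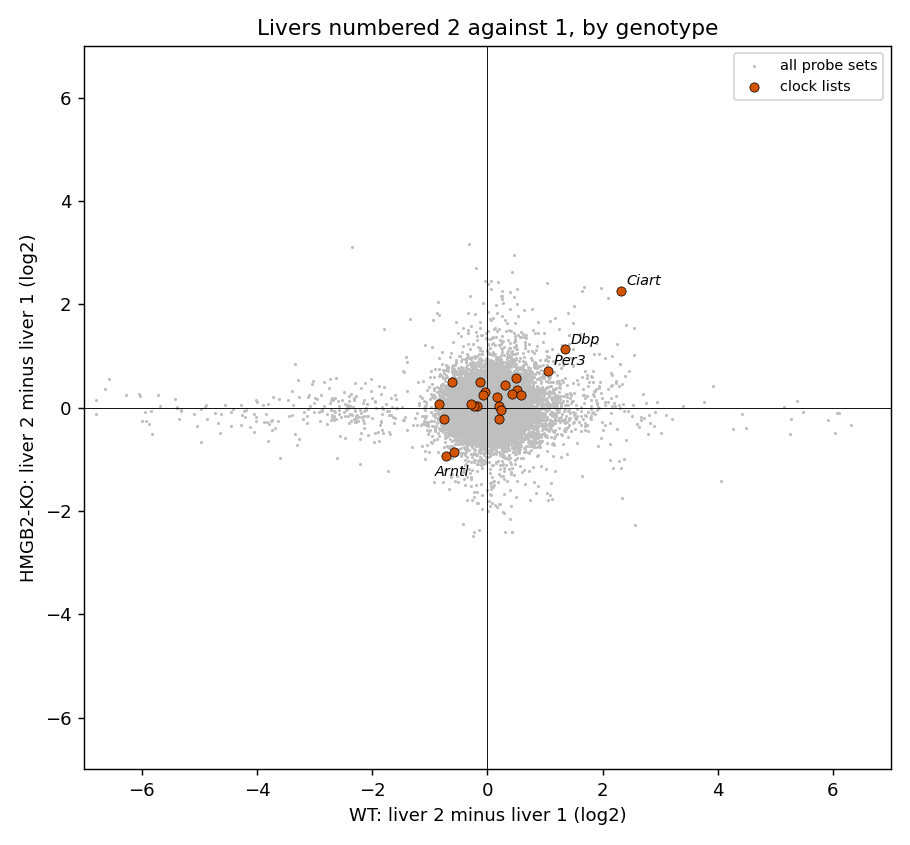
Number 2 minus number 1 in WT (horizontal) against HMGB2-KO (vertical) for all probe sets in grey and the clock probe sets in orange, in log2 units, with the clock genes at least 1.5-fold apart in both genotypes named. Grey points far out along the horizontal axis are probe sets that differ between WT 1 and WT 2 alone. Ciart lies furthest into the upper right, with Dbp and Per3 nearer to 0, and Arntl lies in the lower left.

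Whether the number 3 difference itself differed between genotypes was tested with the interaction term in limma. Of 22203 probe sets, 0 (0.0%) had a Benjamini-Hochberg adjusted p under 0.05, 700 (3.15%) had an unadjusted p under 0.05, and the smallest adjusted p was 0.286. The test has 2 residual degrees of freedom and 1 array at number 3 in each genotype, and a p that misses the threshold does not show that the genotypes behaved alike. The smallest adjusted p belonged to Onecut1, a hepatocyte transcription factor. It stood at 0.22, 0.08 and 2.66 in WT 1, 2 and 3 and at 1.12, 1.21 and -0.40 in HMGB2-KO 1, 2 and 3. WT 3 alone was high, and the interaction was -4.08 (limma, adjusted p = 0.286). Akr1cl, of the aldo-keto reductase family, stood at 1.81, 1.49 and -0.73 in WT 1, 2 and 3 and at -0.78, -0.68 and 0.77 in HMGB2-KO 1, 2 and 3 (interaction 3.89, limma adjusted p = 0.363).

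Cyp26a1, which degrades retinoic acid, was high in WT 3 only, at 2.93 where the other 5 arrays lay between -0.86 and -0.20 (interaction -3.59, limma adjusted p = 0.888). Glipr1l1 (-2.38) and Ooep (2.59) had the same adjusted p. In Saa2 the difference was 2.66 larger in HMGB2-KO. Saa2 was named for its number 3 differences, so its p in the interaction test is not read. Of the 24 cholesterol synthesis genes, 3 had an unadjusted p under 0.05 in this test, among them Sqle and Idi1, and 0 an adjusted one. The interactions of that pair were 2.36 and 1.92.

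The study's own comparison, HMGB2-KO against WT, was fitted with the number 3 term beside genotype. Hmgb2 stood at 0.47, 0.36 and 0.42 in WT 1, 2 and 3 and at -0.66, -0.33 and -0.43 in HMGB2-KO 1, 2 and 3. All 3 HMGB2-KO arrays were lower, by 1.85-fold, a change of -0.89 ± 0.14 (limma, adjusted p = 0.711). The sources used here do not place its probes relative to the altered part of the gene. The number 3 difference of Hmgb2 was 0.03 ± 0.12, where the SE is that of the linear model and not the eBayes SE of the genotype change. Of 22203 probe sets, 0 (0.0%) passed an adjusted p of 0.05 in limma and 966 (4.35%) had an unadjusted p under 0.05, and the smallest adjusted p was 0.167. Because the number 3 term was chosen with these arrays in view, the residual spread of genes that divide by it, and with it their genotype p, leans low.

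None of the 23 clock probe sets had an unadjusted genotype p under 0.05, and their changes lay between -0.36 and 0.50. The smallest adjusted p belonged to a probe set of a predicted gene, which the naming rule leaves out, as it does sensory receptors. Nrk and Rgs21 were the lower genes with the smallest p among those it admits. Nrk, a protein kinase gene, stood at 0.21, 0.46 and -0.18 in WT 1, 2 and 3 and at -0.86, -0.82 and -1.29 in HMGB2-KO 1, 2 and 3, a change of -1.16 ± 0.13 (limma, adjusted p = 0.255). Rgs21 changed by -1.83 ± 0.21 at the same adjusted p. Kif11, a mitotic kinesin, was at -0.90 ± 0.14 and Scml2 at -0.77 ± 0.12 (limma, adjusted p = 0.711 for both). On the higher side, Ces2b, a carboxylesterase, was at 1.73 ± 0.40, Tnfrsf1b, a TNF receptor, at 0.68 ± 0.13, Zfp280d at 0.67 ± 0.14, Slc17a3 at 0.56 ± 0.12 and Ost4 at 0.50 ± 0.12 (limma, adjusted p = 0.942 for each).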

How the data were processed

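RNA of 6 livers, 3 WT and 3 HMGB2-KO, was labelled with biotin and hybridised to Clariom S arrays, per the labels' protocols. The protocol mentions labelling in duplicate without saying whether duplicates were hybridised apart. The authors deposited 22206 rows of processed values on what is taken to be a log2 scale, relative to a zero of each gene's own. That zero is not the centre of these 6 arrays for every gene, since all 6 Saa2 values lie below it. The sources used here do not say what it was set from. The log base is taken from the range of the values, -8.60 to 6.93, so every fold rests on it, and 24.2% of rows hold an exact opposite pair within 2e-06. The sources used here name no background correction, summarisation or genome build. The 22203 probe sets with a symbol were used (21371 with 1 symbol, 832 with several), without a filter on dim probe sets, since brightness is lost. The number of arrays limits the precision.

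Each array was centred on its median. Estimates, SEs and the 2 tests came from limma 3.58.1 in R 4.3.3. The tests used lmFit and eBayes, two-sided, with Benjamini-Hochberg adjustment over all 22203 probe sets at 0.05. The SEs of genotype changes are those of eBayes. The SEs of number 3 differences are those of the linear model alone, on 3 residual degrees of freedom. The 2 kinds of SE are therefore not comparable, and a small number 3 SE is itself imprecise. The fits were also run on simulated data with independent normal noise, which lacks the uneven spread of these arrays. The outcome of that run is not reported here and is not used. Tables were handled in Python 3.11.15 with pandas 2.3.3. The 35 gene lists hold 463 genes, of which 440 were measured. The members and lists were chosen with earlier results of these data known. Named were all clock genes, the 12 lowest and 12 highest other single-symbol probe sets by the smaller within-genotype difference (without predicted genes, sensory receptors, small RNAs and antigen receptor segments), up to 4 members of each list by that rank, the 5 highest and 5 lowest by genotype p, 5 by interaction p, and Hmgb2. Members of lists counted as higher or lower beyond those 4 were named after their values were seen. Alternatives were the values as deposited, quantile normalization, averaging over symbols, a 2-fold size, no genotype or number 3 term, a replicate block, robust eBayes, array weights and leaving out each array. A few genes that the naming rule takes in are counted within their lists but not reported here by name.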

Additional observations from a re-analysis of the deposited data

How the results depend on the processing

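The 353 probe sets counted in the number 3 contrast were 104 (34 higher, 70 lower) at 2-fold. On the values as deposited, where the median of all probe sets was -0.09, 90 were higher in place of 150. Leaving out 1 array gave 293 to 1384 probe sets, 122 to 521 higher and 171 to 912 lower. The largest came without WT 3 (1229, with 521 higher and 708 lower) and without HMGB2-KO 3 (1384, with 472 higher and 912 lower), where only 1 genotype is left to meet the rule. The median of the clock activators was 1.21 after averaging over symbols and -0.01 as deposited. For genotype, the adjusted count was 0 under every alternative. The 966 unadjusted calls (270 higher, 696 lower) became 24 higher and 1194 lower as deposited, and 818 to 1568 without 1 array, with 185 to 490 higher and 461 to 1078 lower. The highest came without WT 1 (1568, with 490 higher and 1078 lower), and the fewest lower calls without WT 2 (461). For the interaction, quantile normalization gave 1 adjusted call and 391 unadjusted lower calls in place of 249, and the values as deposited gave 80 lower. Leaving out 1 array gave 0 to 161 adjusted calls and 631 to 1397 unadjusted ones, with 462 to 859 higher and 169 to 604 lower. It gave 161 adjusted and 1397 unadjusted calls (859 higher, 538 lower) without WT 1, and 22 and 1092 (604 lower) without WT 2, with 1 residual degree of freedom. The interaction could not be fitted without WT 3 or HMGB2-KO 3. The cause of these shifts was not tested.

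Deviations from the genotype means correlated by 0.02, 0.13 and 0.27 for numbers 1, 2 and 3, against -0.22 to 0.11 for other pairs, and 5 of 6 arrays correlated best with their own number. Since number 1 lay under 0.1, the numbers were not taken as pairs. With the replicate block the genotype test gave 0 adjusted and 1003 unadjusted calls, and the interaction 0 and 689. The planned filter on dim probe sets was not run, since the values hold no brightness, nor was the value table of the series matrix, whose values are the same.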

Other observations

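The genes in this paragraph fall outside the rule for named genes and were chosen after their values were seen, so they are values with no test. Txnip, an inhibitor of glucose uptake that glucose induces, was lower on the livers numbered 3, at 2.65, 2.38 and 0.65 in WT 1, 2 and 3 and 3.18, 3.99 and 0.77 in HMGB2-KO 1, 2 and 3, a difference of -2.34 ± 0.41 (SE). Gpcpd1, a glycerophosphocholine phosphodiesterase, differed by -2.45 ± 0.48, and Il6ra, the receptor of interleukin 6, by -1.70 ± 0.38. The amino acid transporters Slc7a2 and Slc38a2 were at -1.69 ± 0.35 and -1.58 ± 0.39, and the kinase Pim3 was at -1.42 ± 0.49. Higher on both number 3 arrays were Hhex, a homeobox factor of liver development, at 1.76 ± 0.40, S1pr1, a sphingosine 1-phosphate receptor, at 1.32 ± 0.17, Cldn1, a tight junction protein, at 1.34 ± 0.61 and Clpx, a mitochondrial protease subunit, at 1.48 ± 0.40. Lrg1, a secreted glycoprotein of the acute phase, stood at -1.49, -1.35 and -0.34 in WT 1, 2 and 3 and at -1.14, -1.05 and -0.17 in HMGB2-KO 1, 2 and 3, a difference of 1.01 ± 0.07. Olfactory, vomeronasal and taste receptors, which the rule left out, numbered 1500 probe sets, with 1 counted as higher and 23 as lower, against 0.676% and 0.914% of all probe sets.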
